A study of Mus musculus with 9 samples.

Results

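The collagen chain genes are the protein-coding mouse genes whose symbols follow the pattern Col, number, a, number, each of which encodes one chain of a collagen. All 44 such genes of the annotation had transcripts in the files, out of 21820 protein-coding genes and 35896 genes in all. Their estimated counts and their TPM (a level per transcript length, scaled within each library) were summed over transcripts. RNA came from E14, a mouse embryonic stem cell line, in 9 libraries of 3 per condition, all collected at 72 h. Control cells +LIF2i stayed in self-renewal medium, with the cytokine LIF, 1 µM of the MEK inhibitor PD0325901 and 1 µM of the glycogen synthase kinase inhibitor CHIR99021. Control cells -LIF2i were moved to medium lacking LIF and both inhibitors for 72 h, which lets them differentiate without direction. CK666 cells -LIF2i were moved in the same way with 80 µM CK666, an inhibitor of the Arp2/3 complex that nucleates branched actin. All cultures shared serum-containing medium on gelatin, which is itself made from collagen. CK666 came from a DMSO stock and the controls are labelled untreated, so the drug and its solvent cannot be told apart. The cultures are of 1 line.

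Collagens are secreted proteins of 3 chains wound into a helix, and which chain genes a cell transcribes limits which collagens it can build. Fibrillar collagens form tensile fibrils, type IV collagen forms the sheet of basement membranes, and the smaller families decorate fibrils, span the plasma membrane or anchor one layer to another. In the early embryo, basement membrane collagens appear first, while the abundant fibrillar collagens belong mainly to later mesenchyme, bone and cartilage. Type XVIII collagen, encoded by Col18a1, is a basement membrane collagen that carries heparan sulfate chains, and its C-terminal fragment is endostatin.

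Library totals ran from 16894327 to 22550952 estimated counts, and a gene was taken as detected from 3 counts, between 0.133 and 0.178 CPM (counts scaled to a common library size). The replicate 1 libraries stood apart: they had fewer genes above 0 than the other libraries of their group (15690 to 17605 against 18166 to 18749) and separated on the second principal component, which held 23.3% of the variance. The 6 embryonic stem cell markers (among them Pou5f1, Sox2 and Nanog) were detected in every library, as the label implies. Their summed TPM was 5370 to 10900 +LIF2i, 3150 to 4100 -LIF2i and 3580 to 6000 with CK666. After withdrawal Esrrb (log2 fold change -4.95), Zfp42 (-4.22), Nanog (-2.12), Sox2 (-1.84) and Dppa5a (-1.19) fell. Pou5f1 differed by -0.24 (adjusted p = 0.423 in edgeR). In such bulk RNA, fewer cells of a type and less RNA per cell cannot be told apart.

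Of the 44 collagen chain genes, 18 (40.9%) were detected in all 9 libraries, against 12787 of 21820 protein-coding genes (58.6%). Counted in every library of a group, 20 were detected +LIF2i, 33 in control cells -LIF2i and 33 with CK666. Single libraries +LIF2i held 22, 31 and 30 detected collagen chain genes in replicate order. There were 35, 39 and 38 in those -LIF2i, and 36, 39 and 37 under CK666. Replicate 1 had the fewest in each group, and no +LIF2i library reached the lowest count of either other group. Col10a1, a collagen of growth plate cartilage, and Col19a1, a rare fibril-associated collagen, were below 3 counts in every library.

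Collagen RNA was dominated by 3 genes of the basement membrane. Col18a1, Col4a1 and Col4a2 together made up 81.9, 76.4 and 71.1% of the summed collagen TPM +LIF2i, 88.5, 80.8 and 77.6% -LIF2i, and 88.9, 80.1 and 78.2% with CK666. The summed TPM of the 44 genes was 241, 186 and 144 +LIF2i, 390, 277 and 262 -LIF2i, and 447, 275 and 295 with CK666. Every library lacking LIF2i lay above every library with it, and the CK666 values overlapped those of the untreated cells -LIF2i. Without Col18a1 the sums no longer separated the groups: they were 111, 136 and 98.3 TPM +LIF2i, 106, 82.6 and 95.1 -LIF2i, and 110, 94.6 and 115 with CK666. By mean TPM over the +LIF2i libraries the order was Col18a1 (75.2), Col4a1 (52.1), Col4a2 (20.0), Col9a2 (7.63), Col5a1 (6.94) and Col26a1 (5.58). The Col18a1 and Col4a1 values overlapped there. In control cells -LIF2i the order was Col18a1 (215), Col4a1 (29.9), Col4a2 (12.4), Col9a2 (8.29), Col2a1 (7.53), Col9a3 (5.67) and Col26a1 (5.22). There Col18a1 lay far above Col4a1 in every library, while the last 4 overlapped each other. With CK666 it was Col18a1 (232), Col4a1 (33.0), Col4a2 (17.6), Col9a3 (8.59), Col26a1 (7.89) and Col9a2 (7.32), of which the last 3 overlapped.

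**Figure D1:**
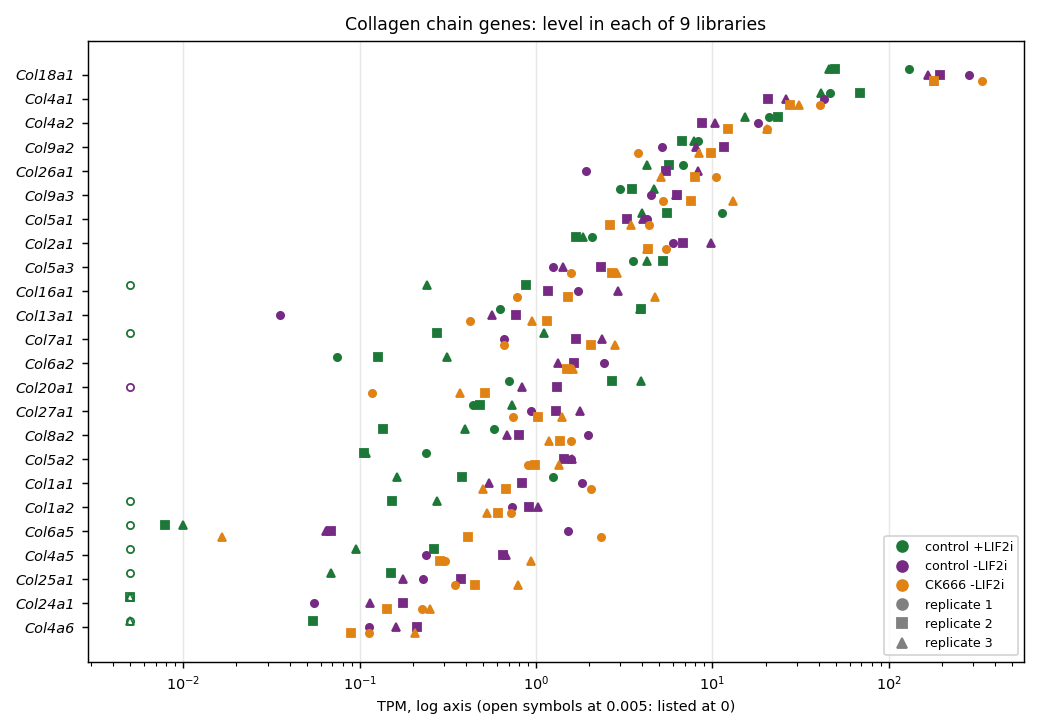
TPM of 24 collagen chain genes in each of 9 libraries on a log axis, with colour for the group and symbol shape for the replicate number, for genes called in at least 1 comparison or with a group mean of at least 5 TPM. Open symbols at the left mark values listed at 0. Col18a1 stands at the top with 45.6 to 337 TPM, and most of the genes below it lie under 10 TPM.

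The first comparison asked how collagen RNA differed 72 h after LIF2i withdrawal from that of self-renewing cells. More chain genes rose than fell: 16 of 33 were higher, among them Col18a1, Col2a1, Col5a2 and Col6a2, and 5 were lower, namely Col4a1, Col5a1, Col5a3, Col13a1 and Col20a1. The other 12 tested genes did not pass. Calls are at a Benjamini-Hochberg adjusted p under 0.05 in edgeR over all 14648 genes tested, with the replicate number as a block. The 21 calls are 63.6% of the members tested, beside 40.7% of all genes (21.1% higher and 19.7% lower). The median log2 fold change of the 33 was 1.49, and that of all genes 0.01. In 19 of the 33 the groups did not overlap in CPM, also beside 40.7% of all genes.

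The 33 are the genes that passed the expression filter and are not all members. The other 11 (Col4a3, Col4a4, Col6a3, Col6a6, Col8a1, Col9a1, Col10a1, Col12a1, Col15a1, Col19a1 and Col28a1) were too low to test, between 0 and 1.19 CPM in any library. A gene low +LIF2i could pass the filter through the groups where it was higher, so the count of rises is not independent of the filter. Without the block, 8 of the 33 were called, or 24.2%, beside 24.0% of all genes in that fit, so the members' share was about that of the background there. Leaving out replicate 1 gave 17 members, or 53.1% of those tested in that fit, beside 44.8% of all genes. Leaving out replicate 2 gave 9 (27.3%, beside 25.3% of all genes), and leaving out replicate 3 gave 9 (28.1%, beside 20.7%). The count also moved by more than 1.5 times without control -LIF2i replicate 2, to 11 (32.4%, beside 28.5% of all genes). It was 13 without control -LIF2i replicate 3 (38.2%, beside 27.8%) and 13 without control +LIF2i replicate 3 (38.2%, beside 28.8%). Other than without replicate 1, the share of all genes called also fell in these fits, and without replicate 2 the members' share was near the background. Calls for Col13a1, Col18a1, Col1a2, Col24a1, Col27a1, Col2a1, Col5a2, Col5a3 and Col6a2 were kept whichever of the 9 libraries was left out. Those for Col13a1, Col18a1, Col2a1, Col5a2, Col5a3 and Col6a2 were also kept whichever replicate number was left out. Of these, Col18a1, Col2a1, Col5a2, Col5a3 and Col6a2 passed in all 19 alternatives. Apart from Col13a1 and the genes just named, each called member lost its call without all libraries of some replicate number.

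**Figure D2:**
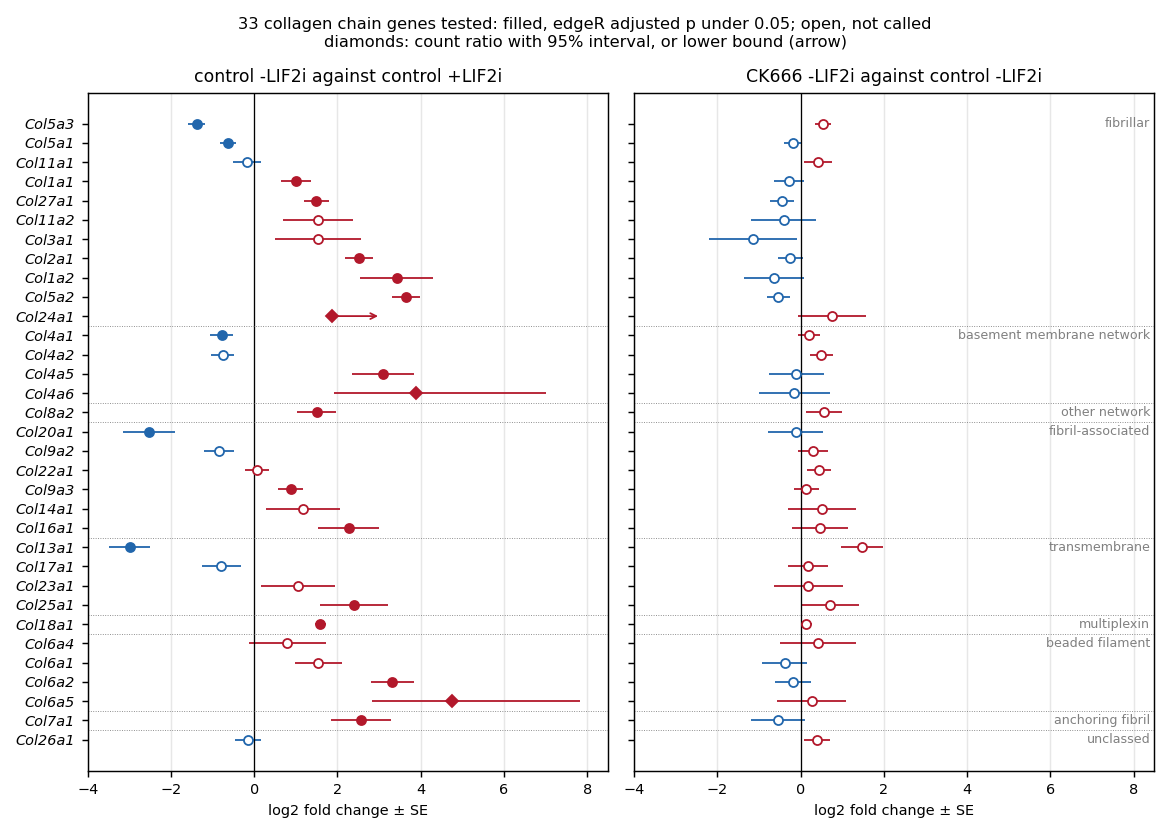
log2 fold change of the 33 tested collagen chain genes, grouped by structural class, for LIF2i withdrawal (left) and for CK666 against control -LIF2i (right), with bars of 1 SE. Filled symbols passed and open symbols did not; diamonds for Col24a1, Col4a6 and Col6a5 give a lower bound or a count ratio with its 95% interval. On the left 21 symbols are filled, and on the right none.

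Col18a1 had the highest mean TPM in each group, and its values in replicate order were 317, 195 and 160 CPM +LIF2i, 753, 666 and 538 CPM -LIF2i, and 952, 645 and 598 CPM with CK666. The +LIF2i libraries all lay below the rest, and replicate 1 was the highest in each group. Withdrawal raised it by a log2 fold change of 1.59 (SE 0.14, adjusted p = 3.83e-05 in edgeR), higher in 3 of 3 same-numbered pairs. Without replicate 1 the log2 fold change was 1.78 (adjusted p = 2.3e-06 in edgeR). Col18a1 held 54.0, 26.8 and 31.7% of the summed collagen TPM +LIF2i, and 72.9, 70.2 and 63.7% -LIF2i. One annotated transcript, the coding Col18a1-202 of 5063 bases, carried between 81.0% and 93.6% of the gene's TPM in every library. Col15a1, which encodes the other collagen of the same family (multiplexins, helices broken by many short gaps), stayed between 0 and 0.246 CPM.

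The DNA just before the annotated start of Col18a1 is shown because this start carries most of the Col18a1 RNA in these cells. It lies on chromosome 10, minus strand, at chr10:77166549-77166780 (RefSeq, GRCm38.p6), upstream of the first exon and in no annotated exon. Capitals mark GC boxes (GGGCGG, read as CCGCCC on the other strand) and CCAAT boxes (ATTGG on the other strand). The stretch holds 3 GC boxes and 1 CCAAT box in 232 bases, with the GC boxes close to the start.
Col18a1: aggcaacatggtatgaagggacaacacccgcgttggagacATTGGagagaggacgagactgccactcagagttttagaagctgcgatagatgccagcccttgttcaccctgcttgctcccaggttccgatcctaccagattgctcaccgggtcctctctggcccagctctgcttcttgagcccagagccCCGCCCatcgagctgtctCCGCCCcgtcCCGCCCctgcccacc

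Of the 6 type IV genes, which build the basement membrane network, 4 were tested: Col4a5 and Col4a6 rose, Col4a1 fell and Col4a2 did not pass. Col4a1 and Col4a2 encode the chains that combine in nearly all basement membranes. Col4a1 stood at 178, 298 and 168 CPM +LIF2i, 168, 94.8 and 119 CPM -LIF2i, and 172, 121 and 144 CPM with CK666. The lowest +LIF2i value barely exceeded the highest -LIF2i value, replicate 2 spanned most of the range, and replicate 1 hardly moved. Col4a1 fell by 0.78 on the log2 scale after withdrawal (SE 0.27, adjusted p = 0.0449 in edgeR). This call was lost without the block (adjusted p = 0.0852 in edgeR) and when any of 7 libraries was left out: +LIF2i replicates 2 and 3, control -LIF2i replicates 2 and 3, and each CK666 library, with an adjusted p of up to 0.228. It was also lost with library totals only (adjusted p = 0.0563 in edgeR), with no filter on low counts (0.149), and without all libraries of replicate 2 or of replicate 3, so that it passed in 7 of 19 alternatives. Col4a2 stood at 73.9, 125 and 71.3 CPM +LIF2i, 71.3, 41.9 and 48.6 CPM -LIF2i, and 84.0, 59.5 and 83.2 CPM with CK666. It took the same course as its partner chain with a log2 difference of -0.76 (SE 0.27), which did not pass (adjusted p = 0.0535 in edgeR). Without replicate 1 it did pass, at -1.08 (adjusted p = 0.0423 in edgeR). It also passed with the stricter filter on low counts (0.0479 in edgeR) and in DESeq2 (0.0158). Per length, Col4a1 exceeded Col4a2 in every library: the TPM ratio was 2.22, 2.90 and 2.69 +LIF2i, 2.36, 2.35 and 2.53 -LIF2i, and 2.00, 2.24 and 1.52 with CK666.

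**Figure D3:**
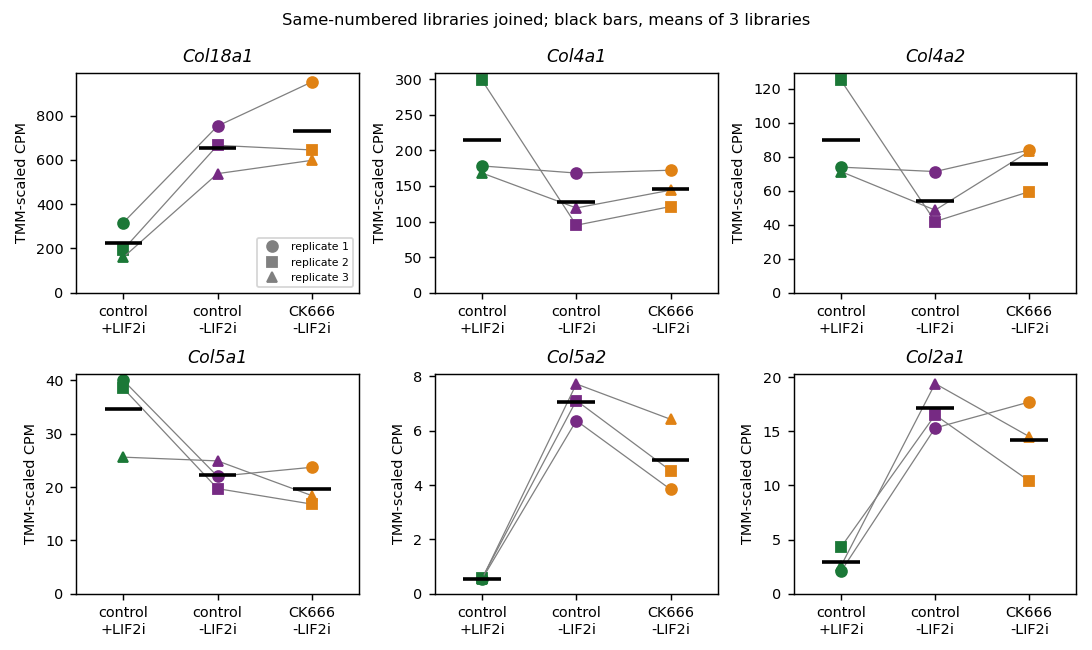
TMM-scaled CPM (linear axes) of Col18a1, Col4a1, Col4a2, Col5a1, Col5a2 and Col2a1 in the 3 groups, with grey lines joining same-numbered libraries and black bars for the means of 3 libraries. Col18a1, Col5a2 and Col2a1 rise in every pair after withdrawal, to means of 652, 7.07 and 17.1 CPM; Col4a1 falls from a mean of 215 to 127 CPM, with replicate 1 nearly flat.

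Col4a5 and Col4a6, whose chains assemble together in some epithelial and smooth muscle basement membranes, were near the detection floor +LIF2i. Col4a5 stood at 0, 0.470 and 0.425 CPM +LIF2i, 0.917, 3.17 and 3.13 CPM -LIF2i, and 1.28, 1.13 and 4.02 CPM with CK666. All libraries lacking LIF2i lay above those with it, and it rose by a log2 fold change of 3.10 (SE 0.75, adjusted p = 0.00939 in edgeR), or 2.83 without replicate 1. The call was lost without the block (0.0538), with the length correction (0.0661), without all libraries of replicate 3 (0.0947) and without control -LIF2i replicate 2 (0.0613). Col4a6 stood at 0, 0.105 and 0 CPM +LIF2i, 0.482, 0.571 and 0.54 CPM -LIF2i, and 0.427, 0.226 and 0.838 CPM with CK666. It had 2 counts over the 3 libraries +LIF2i, 31 in control cells -LIF2i and 28 with CK666. The ratio after withdrawal was 14.8 (exact 95% interval 3.77 to 128, counting error only), called at an adjusted p of 0.0300 in edgeR. Leaving out all libraries of replicate 1 or of replicate 2, +LIF2i replicate 3 or any of the control -LIF2i libraries ended that call, with an adjusted p of up to 0.120. Col4a3 and Col4a4, the chains of kidney filtration membranes, stayed between 0 and 0.283 CPM and were not tested.

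Type IV genes lie head to head in pairs. Col4a1 and Col4a2 start on opposite strands of chromosome 8 with first exons overlapping by 22 bases, and Col4a4 and Col4a3 start 71 bases apart on chromosome 1. Col4a6 and Col4a5 start 1308 bases apart on chromosome X, at 141474076 on the minus strand and 141475385 on the plus strand. The DNA before both starts is shown because this neighbouring pair moved together. Windows are chrX:141474077-141474326, minus strand, for Col4a6 and chrX:141475169-141475384, plus strand, for Col4a5 (RefSeq, GRCm38.p6), both outside annotated exons, and capitals mark the same boxes as above.
Col4a6: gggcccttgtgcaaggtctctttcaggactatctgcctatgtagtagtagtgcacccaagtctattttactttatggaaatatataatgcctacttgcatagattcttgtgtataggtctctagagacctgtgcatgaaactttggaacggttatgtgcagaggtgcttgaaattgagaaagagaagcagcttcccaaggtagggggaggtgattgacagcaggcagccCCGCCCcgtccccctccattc
Col4a5: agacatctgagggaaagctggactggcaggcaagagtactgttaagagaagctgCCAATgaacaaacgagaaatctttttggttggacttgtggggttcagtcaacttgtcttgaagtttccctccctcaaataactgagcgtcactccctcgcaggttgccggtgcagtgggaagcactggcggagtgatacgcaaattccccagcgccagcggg

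The Col4a6 stretch holds 1 GC box and no CCAAT box, and the Col4a5 stretch holds 1 CCAAT box and no GC box. A GC box of Col4a5 lies just past the printed stretch, before the RefSeq start but inside the first GENCODE exon. Over the 250 bases before each RefSeq start, 38 windows of 35 collagen chain genes were found in the table. A GC box on either strand was present in 57.9% of these, beside 32.7% of all 32851 windows. A CCAAT box was present in 34.2% beside 33.8%, TATAAA in 13.2% beside 12.4%, TGANTCA (the AP-1 site) in 2.63% beside 6.75%, and the CArG box in 2.63% beside 1.47%, each on either strand. Matches describe letters only.

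The fibrillar class had 11 members, all tested: 6 were higher after withdrawal, 2 were lower and 3 did not pass. Collagen V, which seeds the fibrils of collagen I and sets their width, showed both directions within its own 3 chain genes. Col5a2 stood at 0.541, 0.575 and 0.547 CPM +LIF2i, 6.37, 7.11 and 7.72 CPM -LIF2i, and 3.84, 4.53 and 6.42 CPM with CK666. The 3 libraries +LIF2i were nearly equal and every other library lay several-fold above them. It rose by a log2 fold change of 3.65 (SE 0.33, adjusted p = 4.65e-05 in edgeR), the steepest rise among members with more than 3 counts in every library +LIF2i. Col5a1, the major chain, stood at 40.0, 38.5 and 25.6 CPM +LIF2i, 22.0, 19.7 and 24.9 CPM -LIF2i, and 23.7, 16.8 and 18.4 CPM with CK666. It fell by 0.63 on the log2 scale after withdrawal (SE 0.20, adjusted p = 0.0315 in edgeR), with the groups just separate, and 2.5% of its exonic bases lie under non-coding genes on the other strand. Without replicate 1 the log2 difference was -0.49 and did not pass (0.107). The call was also lost without the block (0.0743) and without replicates 1 or 2 of either control group, with an adjusted p of up to 0.166. Col5a3 stood at 10.7, 26.0 and 19.7 CPM +LIF2i, 4.54, 10.6 and 6.37 CPM -LIF2i, and 6.21, 12.3 and 12.3 CPM with CK666. It fell by 1.38 on the log2 scale (SE 0.20, adjusted p = 0.000714 in edgeR), and the lowest +LIF2i value only just exceeded the highest -LIF2i value.

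With these opposite changes, the TPM ratio of Col5a2 to Col5a1 was 0.0211, 0.0191 and 0.0273 +LIF2i. It was 0.370, 0.441 and 0.396 in control cells -LIF2i, and 0.205, 0.375 and 0.390 with CK666. All libraries lacking LIF2i had a ratio many-fold above those with it, and in each of them Col5a2 remained below Col5a1 per length.

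Col2a1 encodes the chain of cartilage collagen and is also transcribed in several early embryonic tissues. Its values were 2.06, 4.29 and 2.55 CPM +LIF2i, 15.3, 16.5 and 19.4 CPM -LIF2i, and 17.7, 10.4 and 14.5 CPM with CK666. The +LIF2i libraries lay below all others, and it rose by a log2 fold change of 2.52 (SE 0.33, adjusted p = 0.000342 in edgeR). With transcript length as a correction the log2 fold change was 1.97 (adjusted p = 0.000642 in edgeR). Col2a1-201, a coding transcript, held 29.2, 15.1 and 0% of the gene's TPM +LIF2i. Its share was 81.8, 52.1 and 49.3% -LIF2i, and 100, 59.6 and 93.1% with CK666. The rest was assigned to other annotated transcripts.

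Col1a1 and Col1a2, the chains of collagen I in bone, skin and tendon, remained low. Col1a1 stood at 4.27, 1.83 and 0.729 CPM +LIF2i, 6.56, 3.63 and 2.32 CPM -LIF2i, and 4.79, 3.00 and 2.12 CPM with CK666. The groups overlapped, replicate 1 being highest in each, and Col1a1 rose within all 3 pairs. Its log2 fold change of 1.01 (SE 0.36) passed with the block (adjusted p = 0.0469 in edgeR) but not without it (0.385), nor with the length correction (0.0596) or no filter on low counts (0.0638), nor when any library other than +LIF2i replicate 1 was left out, with values of up to 0.172. Col1a2 stood at 0, 0.105 and 1.09 CPM +LIF2i, 2.22, 3.58 and 3.94 CPM -LIF2i, and 1.94, 1.93 and 2.01 CPM with CK666. The 3 groups did not overlap, and its log2 fold change after withdrawal was 3.42 (SE 0.87, adjusted p = 0.0118 in edgeR). The fit without the block gave 0.0513, and leaving out all libraries of replicate 2 gave 0.0991. Over the alternatives the log2 fold change ran from 2.71 to 5.75, the latter without +LIF2i replicate 3, which held 18 of the counts +LIF2i against 2 in replicate 2 and 0 in replicate 1.

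Col27a1, a fibrillar collagen of cartilage with a short helix, stood at 1.23, 2.25 and 2.61 CPM +LIF2i, 4.15, 5.09 and 7.66 CPM -LIF2i, and 2.42, 4.25 and 6.14 CPM with CK666. It rose by a log2 fold change of 1.49 (SE 0.30, adjusted p = 0.00358 in edgeR), with no overlap between the control groups. Col24a1, a fibrillar collagen of developing bone, was at 0 in all 3 libraries +LIF2i. It stood at 0.241, 0.934 and 0.594 CPM -LIF2i and at 1.04, 0.510 and 1.28 CPM with CK666. Against a floor of 3 counts per library, its mean was at least 3.64-fold higher -LIF2i, with an adjusted p of 0.0132 in edgeR. This call was lost without all libraries of replicate 2 or of replicate 3 (up to 0.0829), and that of Col27a1 without those of replicate 3 (0.0725). The fibrillar genes that did not pass were Col3a1, Col11a1 and Col11a2, with log2 differences of 1.54, -0.17 and 1.53, and levels between 0 and 7.54 CPM.

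Type VI collagen forms beaded filaments next to basement membranes and has 6 chain genes here, of which 4 were tested: 2 rose and 2 did not pass. Col6a2 stood at 0.197, 0.418 and 0.911 CPM +LIF2i, 5.79, 4.83 and 3.83 CPM -LIF2i, and 4.03, 4.47 and 4.47 CPM with CK666. Every library lacking LIF2i lay above those with it, and the log2 fold change was 3.32 (SE 0.51, adjusted p = 0.000892 in edgeR). Col6a1, whose chain joins that of Col6a2 in one molecule, stood at 0.393, 0.470 and 0.668 CPM +LIF2i and at 1.16, 2.28 and 1.08 CPM -LIF2i. These groups did not overlap either, but the log2 difference of 1.54 (SE 0.57) missed the threshold (adjusted p = 0.0557 in edgeR). It did pass in edgeR with library totals only (0.0478) and with the stricter filter on low counts (0.0431), and in DESeq2 (0.0464). The TPM ratio of Col6a2 to Col6a1 was 0.437, 0.459 and 1.37 +LIF2i and 5.11, 2.15 and 3.62 -LIF2i. Col6a3, their usual partner, did not exceed 0.571 CPM and was not tested.

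Col6a5, an alternative partner chain, had 2 counts over the libraries +LIF2i and 56 in control cells -LIF2i, a ratio of 26.8 (exact 95% interval 7.07 to 226, counting error only), with an adjusted p of 0.0192 in edgeR. Col6a5 stood at 0, 0.0523 and 0.0607 CPM +LIF2i. After withdrawal the signal leaned on replicate 1, with 1.98, 0.415 and 0.378 CPM -LIF2i and 3.13, 0.793 and 0.112 CPM with CK666. In replicate 1, 81.8% of its TPM -LIF2i and 81.7% with CK666 was assigned to Col6a5-202, a retained-intron transcript of 779 bases. Without replicate 1 Col6a5 was too low to test. The call was also lost without the block (0.0509) and without +LIF2i replicate 1, or control -LIF2i replicates 1 or 3, with values of up to 0.0720. Col6a4 did not pass (log2 difference 0.80, SE 0.93), and Col6a6 was not tested.

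Fibril-associated collagens sit on the surface of larger fibrils. Of 9 such genes 6 were tested: 2 rose, 1 fell and 3 did not pass. Col9a3, a chain of cartilage collagen IX, stood at 2.80, 5.12 and 5.53 CPM +LIF2i, 6.85, 7.47 and 9.17 CPM -LIF2i, and 4.03, 9.91 and 14.8 CPM with CK666. The control groups did not overlap, but the log2 fold change of 0.88 (SE 0.30, adjusted p = 0.0448 in edgeR) was lost without the block (0.249), with the length correction (0.127), and without any single library other than CK666 replicate 1 (up to 0.197). Leaving out all libraries of any 1 replicate number ended the Col9a3 call as well. In addition 6.07% of the exonic bases of Col9a3 are shared with Tcfl5 on the other strand, which this library type cannot separate. Col16a1 stood at 0, 0.993 and 0.668 CPM +LIF2i, 0.820, 3.94 and 2.64 CPM -LIF2i, and 2.09, 2.38 and 3.80 CPM with CK666. The control groups overlapped, and its log2 fold change was 2.27 (SE 0.73, adjusted p = 0.0337 in edgeR). That call was lost without the block (0.142), with the length correction (0.0784), and without +LIF2i replicate 3, any control -LIF2i library or CK666 replicate 3 (up to 0.156).

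Col20a1 moved the other way, from 1.52, 8.47 and 10.6 CPM +LIF2i to 0, 2.96 and 1.57 CPM -LIF2i, with 0.332, 1.70 and 1.17 CPM under CK666. Replicate 1 was lowest in each group, so that the groups overlapped although all 3 pairs fell. It fell by 2.53 on the log2 scale (SE 0.62, adjusted p = 0.00995 in edgeR), and without replicate 1 by 2.09 on the log2 scale (0.00144). The fit without the block gave 0.209. The call was also lost without all libraries of replicate 3, and without +LIF2i replicate 3 or control -LIF2i replicate 3 alone (up to 0.0641). Col14a1 and Col22a1 did not pass, with log2 differences of 1.17 and 0.06.

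Col9a2, another chain of collagen IX, had the highest mean TPM of the fibril-associated class in both control groups (with CK666 it was Col9a3), and its 2 measures differed. In CPM it stood at 12.9, 15.3 and 12.9 +LIF2i, 4.54, 12.5 and 8.91 -LIF2i, and 3.46, 15.4 and 14.6 with CK666. The CPM of the control groups did not overlap, with a log2 difference of -0.84 (SE 0.36) that did not pass (adjusted p = 0.0943 in edgeR). In TPM it stood at 8.32, 6.75 and 7.82 +LIF2i and at 5.18, 11.6 and 8.05 -LIF2i, where the groups overlapped. With transcript length as a correction in the fit, the log2 difference was 0.00 (adjusted p = 0.996 in edgeR).

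By transcript, the coding Col9a2-201 of 2924 bases stood at 7.98, 6.75 and 5.76 TPM +LIF2i, 2.14, 4.82 and 3.54 TPM -LIF2i, and 1.53, 6.78 and 7.07 TPM with CK666. The non-coding processed transcript Col9a2-202 of 752 bases stood at 0.339, 0 and 2.06 TPM +LIF2i, 3.04, 6.81 and 4.51 TPM -LIF2i, and 2.24, 3.06 and 1.29 TPM with CK666. The coding transcript was lower, and the short one higher, in every control library -LIF2i than in any +LIF2i. The short transcript took 58.6, 58.5 and 56.1% of the gene's TPM -LIF2i, against 4.07, 0 and 26.3% +LIF2i. How reads were divided between transcripts was estimated by the authors, and no test was run on single transcripts.

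**Figure D4:**
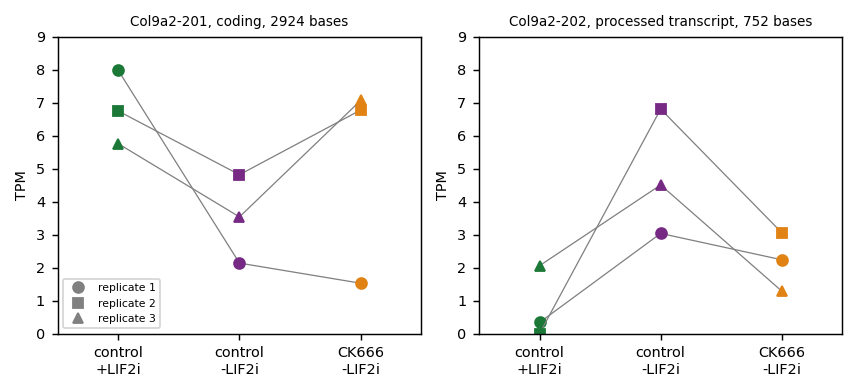
TPM of the coding transcript Col9a2-201 (left) and of the processed transcript Col9a2-202 (right) in the 3 groups, with same-numbered libraries joined and linear axes from 0. In all 3 pairs the coding transcript falls and the short one rises after LIF2i withdrawal, to between 2.14 and 4.82 TPM and between 3.04 and 6.81 TPM.

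Of the 4 membrane-spanning collagens, 1 rose, 1 fell and 2 did not pass. Col13a1, found at cell-matrix contacts and at the neuromuscular junction, stood at 1.08, 8.78 and 7.96 CPM +LIF2i, 0.0483, 1.25 and 1.03 CPM -LIF2i, and 0.711, 2.49 and 1.95 CPM with CK666. Replicate 1 was lowest in each group, and the groups overlapped only through its +LIF2i library. Col13a1 fell by 2.99 on the log2 scale (SE 0.49, adjusted p = 0.00129 in edgeR), in 3 of 3 pairs, and without replicate 1 by 2.85 on the log2 scale. The fit without the block gave 0.0607. Col25a1, a neuronal membrane collagen, stood at 0, 0.314 and 0.243 CPM +LIF2i, 0.724, 1.14 and 0.864 CPM -LIF2i, and 1.18, 1.19 and 2.12 CPM with CK666. The 3 groups did not overlap. Its log2 fold change after withdrawal of 2.40 (SE 0.82, adjusted p = 0.0410 in edgeR) was lost without the block (0.0821), with the length correction (0.126), and without any single library other than +LIF2i replicate 1 (up to 0.140). Col17a1 of hemidesmosomes and Col23a1 did not pass, at -0.79 and 1.06.

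Among the remaining classes, Col7a1, which forms the anchoring fibrils beneath epithelia, stood at 0, 2.09 and 1.82 CPM +LIF2i, 3.76, 8.15 and 7.34 CPM -LIF2i, and 3.03, 3.57 and 6.14 CPM with CK666. It rose by a log2 fold change of 2.57 (SE 0.72, adjusted p = 0.0186 in edgeR), with no overlap. That call was lost without the block (0.108) and without +LIF2i replicate 3 or control -LIF2i replicate 2 (up to 0.0811). It was also lost without all libraries of replicate 2 or of replicate 3. Col8a2, a chain of the hexagonal lattice beneath corneal endothelium, stood at 1.42, 0.470 and 1.28 CPM +LIF2i, 5.11, 1.97 and 2.10 CPM -LIF2i, and 4.31, 4.36 and 3.63 CPM with CK666. Its log2 fold change of 1.5 (SE 0.46, adjusted p = 0.0271 in edgeR) was lost without the block (0.0665). The call was lost too without all libraries of any 1 replicate number (0.0627 for replicate 1). It was also lost without +LIF2i replicate 2 or control -LIF2i replicates 1 or 2 (up to 0.132). Col26a1, in no classical family, stood at 2.75, 4.97 and 2.37 CPM +LIF2i, 2.12, 3.84 and 2.91 CPM -LIF2i, and 3.41, 4.87 and 3.30 CPM with CK666. These ranges overlapped, and the log2 difference after withdrawal was -0.15 (SE 0.31, adjusted p = 0.728 in edgeR).

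Markers of cell types known to make much collagen were summed beside these results. The 10 genes for primitive and parietal endoderm, a source of type IV and XVIII collagen, summed to 5.54 to 9.07 TPM +LIF2i, 10.3 to 32.2 TPM -LIF2i and 12.6 to 24.0 TPM with CK666. Of them 8 stayed under 1 TPM in every library of each group, and Afp was below the floor throughout. The others were Dab2, an endocytic adaptor, with 4.99, 1.35 and 0.901 TPM +LIF2i and 22.1, 9.12 and 6.31 TPM -LIF2i, and Gata4, a transcription factor, with 3.47, 3.55 and 3.04 and then 6.13, 1.48 and 2.04 TPM. Dab2 rose after withdrawal (log2 fold change 2.80), and Gata4 did not pass (-0.42). The 8 fibroblast and mesenchyme genes summed to 8.32 to 12.9, 29.4 to 35.2 and 23.6 to 35.1 TPM in the same order, most of it from Thy1 in the control libraries -LIF2i. Of these genes Thy1 rose (log2 fold change 2.32), as did Twist2, listed at 0 TPM +LIF2i and at 0.253 to 1.01 TPM -LIF2i, while Twist1 (1.24) and Pdgfrb (-0.88) did not pass and Dpt and Fap were below the floor throughout. Some genes of the lists for other lineages moved as well. The 4 endothelial genes summed to 75.8 to 105, 4.90 to 7.16 and 10.1 to 35.5 TPM, nearly all of it Pecam1, an adhesion molecule also carried by mouse ES cells. Pecam1 fell after withdrawal by 3.97 on the log2 scale (adjusted p = 6.28e-05 in edgeR), while Cdh5, the cadherin that defines endothelium, reached at most 0.114 TPM. The 7 trophoblast genes summed to 56.3 to 107, 58.6 to 132 and 45.7 to 96.3 TPM. Among them the keratins Krt7 (log2 fold change 2.32) and Krt8 (1.88) rose after withdrawal, and the transcription factor Tfap2c fell (-4.30). The 4 neural genes summed to 30.1 to 185, 16.2 to 70.9 and 20.8 to 69.7 TPM. There the transcription factor Neurod1 rose (3.02), and Sox1 (-1.36) and the tubulin Tubb3 (-1.52) fell. The part of such cells in the collagen values was not tested.

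The second comparison asked whether collagen RNA after withdrawal differed when the Arp2/3 complex was inhibited. None of the 33 tested chain genes passed in edgeR, beside 2.05% of all genes (300 of 14648; 1.15% higher and 0.894% lower). At an unadjusted p under 0.05 there were 2, Col13a1 and Col5a3. DESeq2 also called 0 of the 33, beside 7.78% of all genes (1140 of 14648). The median log2 difference of the 33 was 0.17, and that of all genes 0.02. The groups did not overlap in CPM for 2 of the 33, beside 16.5% of all genes: Col1a2 was lower and Col25a1 higher with CK666. No member was called in any of the 19 alternatives in which it could be tested. The share of all genes called in those fits ran from 0% to 12.3%, so some could call hardly any gene.

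Among the abundant members, for Col18a1 the log2 difference was 0.14 (95% confidence interval -0.16 to 0.45), with 2 of 3 pairs higher. For Col4a1 it was 0.20 (-0.39 to 0.80) and for Col4a2 0.50 (-0.11 to 1.11), both higher with CK666 in 3 of 3 pairs. Col5a1 differed by -0.19 (-0.64 to 0.26) and Col2a1 by -0.25 (-0.93 to 0.42). Col9a3 differed by 0.13 (-0.54 to 0.80), Col9a2 by 0.29 (-0.52 to 1.10) and Col26a1 by 0.39 (-0.31 to 1.10). Of these intervals those of Col4a2, Col9a2 and Col26a1 reached beyond 1 log2 unit, and those of low members were wider, as for Col24a1 (-1.18 to 2.68) and Col4a6 (-2.05 to 1.76).

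Values with the smallest p were for genes that had fallen after withdrawal. Col13a1 was higher with CK666 in 3 of 3 pairs, with a log2 difference of 1.47 (SE 0.50, adjusted p = 0.149 in edgeR), and Col5a3 by 0.54 (SE 0.20, adjusted p = 0.187 in edgeR). Col5a2, which had risen, was lower with CK666 in 3 of 3 pairs by 0.54 (the log2 difference was -0.54, SE 0.28, adjusted p = 0.319 in edgeR). None of these passed, and both comparisons use the same control -LIF2i libraries, so opposite signs in them are not independent. Col1a2, one of the genes without overlap, differed by -0.64 (SE 0.73), and Col25a1 by 0.71 (SE 0.69).

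Against control cells +LIF2i, the CK666 cells differed in 18 of the 33 genes, 14 higher and 4 lower (54.5%, beside 36.9% of all genes, 19.8% higher and 17.1% lower). The median log2 fold change was 1.16, and that of all genes 0.01. Without the block 10 were called, or 30.3%, beside 20.2% of all genes. The count also fell by more than 1.5 times without all libraries of replicate 2, to 7 (21.2%, beside 22.5% of all genes), or of replicate 3, to 8 (25.0%, beside 16.1%). It was 9 without +LIF2i replicate 3 (26.5%, beside 24.8%), 9 without CK666 replicate 2 (27.3%, beside 25.7%) and 10 without CK666 replicate 3 (30.3%, beside 23.4%). The members' share was thus near or under that of all genes without replicate 2, +LIF2i replicate 3 or CK666 replicate 2. This comparison shares its controls with the first and its CK666 libraries with the second, so values are given side by side. Col18a1 was higher by a log2 fold change of 1.73 with CK666 (adjusted p = 3.13e-05 in edgeR), beside 1.59 without the drug. Col5a2 was higher by 3.11 beside 3.65, Col2a1 by 2.27 beside 2.52, and Col6a2 by 3.14 beside 3.32. With the length correction Col2a1 was higher by 1.33 beside 1.97. Col13a1 differed by -1.52 beside -2.99, Col5a3 by -0.84 beside -1.38, and Col4a1 by -0.57 beside -0.78, the last not called with CK666 (adjusted p = 0.122 in edgeR). Without the block neither Col13a1 (0.226) nor Col5a3 (0.198) was called with CK666. The Col13a1 call was also lost without replicates 2 or 3 of either the +LIF2i or the CK666 group (up to 0.161), and that of Col5a3 without +LIF2i replicate 3 or CK666 replicate 2 (up to 0.0704). Col24a1 was at least 5.83-fold higher than +LIF2i with CK666. The count ratio was 13.8 (3.49 to 120) for Col4a6 and 40.5 (10.9 to 340) for Col6a5. The Col4a6 call with CK666 was lost with the length correction (0.0656), with no filter on low counts (0.0564) and without any single library other than +LIF2i replicate 2 (up to 0.169). That of Col6a5 was lost without +LIF2i replicate 1 or CK666 replicates 1 or 2 (up to 0.0823).

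A collagen chain needs a machinery of hydroxylases, chaperones, export factors, proteases and crosslinking enzymes before it becomes a fibre, and receptors and proteases act on it afterwards. Of 62 such genes in 10 roles, 53 were tested: after withdrawal 18 rose and 18 fell, or 67.9% beside 40.7% of all genes. Without the block 28 of the 53 were called, beside 24.0% of all genes in that fit. The median log2 fold change of the 53 was -0.10. Of 3 prolyl 4-hydroxylase genes tested, which stabilise the helix, 2 fell, and of 4 lysyl hydroxylase and galactosyltransferase genes 3 fell, none of either group being called higher. In the prolyl 3-hydroxylase complex 1 of 6 rose and 2 fell. Of 5 receptors tested 4 were called higher and 1 lower, and of 7 turnover genes 5 rose and 1 fell.

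P3h2, a prolyl 3-hydroxylase that acts mainly on basement membrane collagen, rose from 0.786, 0.209 and 0 CPM +LIF2i to 6.61, 2.85 and 5.99 CPM -LIF2i, without overlap (log2 fold change 4.07, SE 0.67, adjusted p = 0.00132 in edgeR). Pxdn, the peroxidase that crosslinks type IV collagen, rose from 25.4, 30.5 and 25.7 to 166, 114 and 102 CPM (log2 fold change 2.19, SE 0.20). Both rose in the comparison in which Col18a1, Col4a5 and Col4a6 were called higher and Col4a1 lower. The Col4a1 call passed in 7 of 19 alternatives. Pcolce and Pcolce2, which enhance the trimming of fibrillar procollagen, fell by 3.27 (SE 0.18) and fell by 2.62 (SE 0.25) on the log2 scale, from means of 129 and 40.3 CPM to 13.8 and 6.83 CPM. Fkbp14, a chaperone of collagen folding, fell by 2.42 on the log2 scale (SE 0.25). Tgm2, a transglutaminase that crosslinks matrix, fell by 3.14 on the log2 scale (SE 0.46), from a mean of 69.2 to 7.88 CPM.

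The collagen receptors Ddr1 and Ddr2, both tyrosine kinases, moved apart. Ddr1, which binds fibrillar and type IV collagen, rose from 17.5, 21.2 and 20.0 CPM to 93.5, 143 and 158 CPM (log2 fold change 2.71, SE 0.16, adjusted p = 5.73e-06 in edgeR). Ddr2, which binds mainly fibrillar collagen, fell from 11.2, 2.98 and 2.55 CPM to 0.145, 0.208 and 0.108 CPM (log2 fold change -4.97, SE 0.66, adjusted p = 0.000404 in edgeR), with replicate 1 well above the other +LIF2i libraries. Mrc2, which takes up collagen for degradation, rose by 4.97 on the log2 scale (SE 0.65), from a mean of 0.635 to 21.6 CPM. Mmp2, a gelatinase, had a log2 fold change of 2.41 (SE 0.31), while Timp1, an inhibitor of such proteases, fell by 2.84 on the log2 scale (SE 0.27). Other genes rose on low counts: Itga1, a collagen-binding integrin (log2 fold change 3.14, SE 0.88), and Dcn, a proteoglycan of fibril surfaces (log2 fold change 3.11, SE 1.05, adjusted p = 0.0397 in edgeR). The Dcn call was lost in 7 of 9 single-library omissions, and the Itga1 call without +LIF2i replicate 3 or control -LIF2i replicates 2 or 3.

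**Figure D5:**
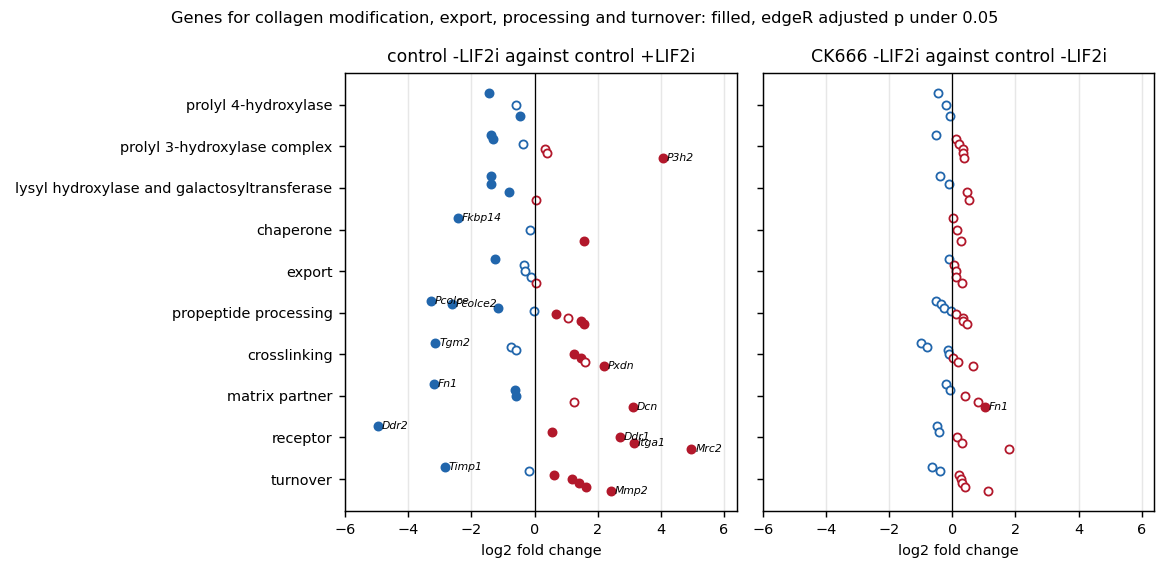
log2 fold changes of 53 tested genes for collagen modification, export, processing, binding and turnover, by role, for withdrawal (left) and CK666 (right), filled where called. Names mark calls of at least 2 log2 units on the left and the call on the right. On the left 18 genes are called higher and 18 lower; on the right Fn1 is the call.

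With CK666, 1 of the 53, Fn1, passed in the main fit, beside 2.05% of all genes. Colgalt1, Loxl2 and Plod1 also passed in DESeq2, where 7.78% of all genes were called. The same genes and Pcolce passed without all libraries of replicate 1 (12.3% of all genes). Without +LIF2i replicate 1 alone (11%) Ddr1 passed in addition to these. Fn1 encodes fibronectin, on which cells lay down collagen fibrils. It stood at 2350, 2710 and 2580 CPM +LIF2i, 278, 286 and 268 CPM -LIF2i, and 534, 640 and 549 CPM with CK666. The 3 groups did not overlap. Fn1 fell by 3.20 on the log2 scale after withdrawal (SE 0.13) and was higher with CK666 than without it by a log2 fold change of 1.04 (SE 0.12, adjusted p = 0.0112 in edgeR). Without the block the latter was not called (0.268), nor without control -LIF2i replicates 2 or 3 or CK666 replicate 2 (up to 0.113). It was also lost without all libraries of replicate 2 or of replicate 3.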

How the data were processed

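Poly-A RNA was sequenced per the labels' protocols, with a kit that does not mark strand. FastQC, cutadapt 1.8.1, kallisto and sleuth are named by the submitters' processing notes, with the builds GRCh38 and mm10; their order and the transcript release are not given in the sources used here. The authors deposited per transcript estimated counts, TPM and an effective length in bases, per the file headers. Estimated counts are not normalised and split reads between transcripts.

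Transcripts were mapped to genes by identifier (GENCODE M21, GRCm38; 97.7% matched, the rest holding 0.895% to 1.08% of counts and left out), summed and rounded. edgeR 4.0.16 (quasi-likelihood test, TMM, its expression filter, R 4.3.3) tested 14648 genes in one fit of all 9 libraries with the replicate number as block, since the design text calls the replicates paired. Deviations from the group means gave a median r of 0.41 for same-numbered libraries (lowest 0.30), against -0.37 for different numbers (highest 0.29). Deviations within a group sum to 0, so positive values for same numbers bring negative ones for different numbers. The medians are therefore not independent, and the part of replicate 1 in them was not tested. CPM are TMM-scaled, and SE derive from the test. The script was tested on simulated data. P-values measure the spread between these cultures. Alternatives were no block, other scalings and filters, DESeq2 1.42.0, a length offset and left-out libraries.

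The members and lists were chosen with earlier results of these data known. Every member is accounted for; values in all libraries are given for genes called or with a group mean of at least 5 TPM, and collagen partners are named if called beyond 2 log2 units in either direction, or under CK666. Intervals of log2 differences come from the edgeR fit and hold the spread between cultures. Exact intervals of count ratios and floors (3 counts) reflect counting error alone, as PCR copies without identifiers are not separate molecules.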

Additional observations from a re-analysis of the deposited data

How the results depend on the processing

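For withdrawal, 21 collagen chain genes were called and 8 without the replicate block. Pairing is stated by the series design. The spread between libraries (edgeR's biological coefficient of variation) was 0.211 with the block and 0.356 without. Leaving out libraries gave between 9 (27.3 or 28.1%, beside 25.3 or 20.7% of all genes) and 19 (55.9%, beside 41.8%). For CK666 against control +LIF2i, 18 were called and 10 without the block. With libraries left out it was between 7 (21.2%, beside 22.5% of all genes) and 19 (55.9%, beside 38.6%). Fewer samples enter those fits. Over all genes, calls without the block were 3509, 0 and 2966 in place of 5967, 300 and 5408 for withdrawal, CK666 and CK666 against +LIF2i. For CK666 against control -LIF2i the count of members was 0 in each alternative fit. Of all genes, 0% were called without the block or without replicate 3, and 12.3% without replicate 1. Where hardly any gene was called, a count of 0 says little about the members. Detection in all 9 libraries covered 18 genes at 3 counts, 14 at 10 counts and 9 at 1 TPM. For withdrawal, DESeq2 size factors and library totals each gave 21 calls of 33 members tested (63.6%, beside 40.5% and 40.3% of all genes). With no filter 20 of 44 were called (45.5%, beside 25.1%), and with the stricter filter 21 of 28 (75%, beside 42.7%). DESeq2 itself called 23 of 33 (69.7%, beside 43.1%), and the length offset 16 of 33 (48.5%, beside 34.6%), with the cause not tested. Near-equal counts were not always the same genes: of the 21 called, 20 were shared with library totals and 19 with no filter or with the stricter filter. Col4a1 was lost under library totals and no filter, and Col1a1 under no filter. Col6a1 was gained under library totals, the stricter filter and DESeq2 itself, and Col4a2 under the stricter filter and DESeq2 itself. No called member changed sign under any alternative. At these totals 3 counts correspond to 0.133 to 0.178 CPM, so levels below that were not detectable.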
